A study of Caenorhabditis elegans with 2 samples.

Results

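Cuticle collagen genes encode the proteins that form most of the worm's outer coat. The set described here holds every nuclear protein-coding gene whose symbol begins with col- and a number, together with 16 collagen genes named for the body shape or blisters of their mutants (bli-1, bli-2, dpy-2, dpy-3, dpy-4, dpy-5, dpy-7, dpy-8, dpy-9, dpy-10, dpy-13, dpy-17, rol-6, sqt-1, sqt-2 and sqt-3). It counts 172 genes of 19973 protein-coding genes in Ensembl release 115, and symbols alone chose them. One of them, col-99, is known as a transmembrane collagen rather than a secreted cuticle protein.

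SPTF-2, a zinc finger protein of the Sp family, was mapped by sequencing of immunoprecipitated chromatin (ChIP-seq) in 1 group with 2 biological replicates. Worms of strain OP769 have the allele unc-119(tm4063) and the transgene wgls769, which holds sptf-2::TY1::EGFP::3xFLAG beside a rescuing unc-119(+), and the tagged protein is made from that transgene. Whole young adults of both sexes, pooled, had an age of 64.5 h after synchronisation by bleaching and starvation as first-stage larvae, and chromatin was pulled down with an anti-GFP antibody. Both replicates therefore share every allele and treatment, and no untagged strain was analysed here. In whole worms, more nuclei with a bound site and more binding per nucleus cannot be told apart. Each replicate has a list of 30000 peaks, as has the list made from both replicates pooled. A shorter list holds the pooled peaks that met the submitters' threshold on reproducibility, and is called the optimal list. Peaks were ranked within a list by their deposited signal value, a score on the peak caller's own scale.

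A nematode cuticle is secreted by the epidermis beneath it and is replaced at each moult. Its collagens share long runs of the repeat Gly-X-Y, in which glycine recurs at a fixed spacing and proline is frequent between, so that chains can wind into a triple helix. Furrow collagens set the rings on the cuticle surface, strut collagens hold its layers together, and other members set body shape.

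SPTF-2 summits at these genes lay mostly inside the coding sequence and not in front of the gene. Sequences of 50 bp on either side of some strong pooled summits in coding exons are printed as picked examples, and the counts follow further below. They are read from the WBcel235 (ce11) genome in the direction of each gene, and none overlaps an annotated UTR. Capitals mark GGACCA, which spells a glycine codon followed by a proline codon where it stands in frame. The first 5 sequences are from members with some of the strongest summits of the set, and the last 4 are from body-shape genes and from col-2, the printed window with the most matches.
col-98: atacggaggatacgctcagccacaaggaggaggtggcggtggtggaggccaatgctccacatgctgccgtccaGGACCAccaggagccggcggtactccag
col-108: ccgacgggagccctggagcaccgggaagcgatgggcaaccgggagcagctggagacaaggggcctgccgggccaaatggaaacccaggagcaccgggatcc
col-122: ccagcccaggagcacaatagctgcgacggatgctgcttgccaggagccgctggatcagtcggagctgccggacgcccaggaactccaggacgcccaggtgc
col-106: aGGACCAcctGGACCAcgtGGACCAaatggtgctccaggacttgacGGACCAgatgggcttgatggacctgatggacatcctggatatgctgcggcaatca
col-34: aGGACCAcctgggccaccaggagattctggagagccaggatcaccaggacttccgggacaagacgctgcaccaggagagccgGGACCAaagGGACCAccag
sqt-3: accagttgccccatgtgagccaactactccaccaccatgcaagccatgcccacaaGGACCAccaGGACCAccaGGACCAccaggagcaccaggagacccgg
rol-6: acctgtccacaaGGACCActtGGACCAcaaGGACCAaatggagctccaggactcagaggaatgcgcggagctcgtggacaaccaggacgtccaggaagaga
sqt-1: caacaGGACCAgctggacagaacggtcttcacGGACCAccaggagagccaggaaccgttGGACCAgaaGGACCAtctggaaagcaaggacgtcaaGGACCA
col-2: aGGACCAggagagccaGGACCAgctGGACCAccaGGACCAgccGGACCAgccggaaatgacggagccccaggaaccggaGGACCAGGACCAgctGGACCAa
These windows lie at chrIII:13019445-13019545 (+), chrIV:1769267-1769367 (+), chrIV:9563761-9563861 (+), chrIV:1460405-1460505 (-), chrIV:4243966-4244066 (-), chrV:12353524-12353624 (+), chrII:8733674-8733774 (+), chrII:11336854-11336954 (-) and chrIV:10084646-10084746 (-), in the order printed. Each summit was in a coding exon. The window of col-2 held 8 matches and that of sqt-1 held 5, whereas col-108 and col-122 held none. Their GC content ran between 56.4% in col-106 and 69.3% in col-108.

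A pair of further windows shows other placements. The strongest summit of the whole set, in col-85, fell in an intron and inside a tRNA gene on the opposite strand (RefSeq product tRNA-Ile, chrII:12494741-12494814), whose bases are in capitals. In col-107 the strongest summit lay 100 bp upstream of the start and inside the span of another protein-coding gene, C34H4.5. The capitals there mark the GA repeat GAGAGA.
col-85: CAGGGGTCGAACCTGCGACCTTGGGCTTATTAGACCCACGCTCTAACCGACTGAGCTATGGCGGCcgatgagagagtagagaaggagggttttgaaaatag
col-107: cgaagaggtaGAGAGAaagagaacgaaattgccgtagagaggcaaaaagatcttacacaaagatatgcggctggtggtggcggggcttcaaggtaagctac
These are chrII:12494705-12494805 (-) and chrIV:1548571-1548671 (+). Further tRNA genes lay near the summits of other members. The strongest body summit of col-99 was 64 bp from a tRNA-Arg gene, that of col-72 was 68 bp from a tRNA-His gene and that of col-54 was 29 bp from a tRNA-Arg gene. No other member with a body summit had a tRNA, snoRNA, snRNA or miRNA start within 500 bp of its strongest one.

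In the pooled list, 125 of the 172 collagen genes had a summit inside the annotated gene body. That is 72.7% (exact 95% interval 65.4 to 79.2, counting error only), beside 52.3% of all protein-coding genes. Replicate 1's own list gave 132 members (76.7%), beside 52.5% of all genes. Replicate 2's own list gave 124 members (72.1%), beside 53.5% of all genes. So the share among collagen genes was above that among all genes in each of the 3 lists. Both replicates placed a summit in the body of 111 members (64.5%), beside 38.2% of all genes, and 27 members had none in either replicate or in the pooled list. Of the 47 without a pooled body summit, at least 16 have coding sequence that mostly recurs elsewhere in the genome.

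The members also ranked high within the lists. Among the strongest 5000 pooled peaks, 66 members (38.4%) had a summit in the gene body, beside 13.3% of all genes. The same cut gave 51 members (29.7%) in replicate 1, beside 13.3% of all genes, and 53 (30.8%) in replicate 2, beside 13.8%. With a body summit required in the strongest 5000 of each replicate, at the same place or not, 27 members (15.7%) were left, beside 5.76% of all genes. The optimal list reached 8 members inside the body (4.65%), beside 0.921% of all genes. As many of the strongest peaks of a single replicate reached 7 members in replicate 1 (4.07%, beside 0.961% of all genes) and 3 in replicate 2 (1.74%, beside 1.08%). The 8 of the optimal list were col-34, col-46, col-47, col-85, col-98, col-106, col-108 and col-122.

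**Figure D1:**
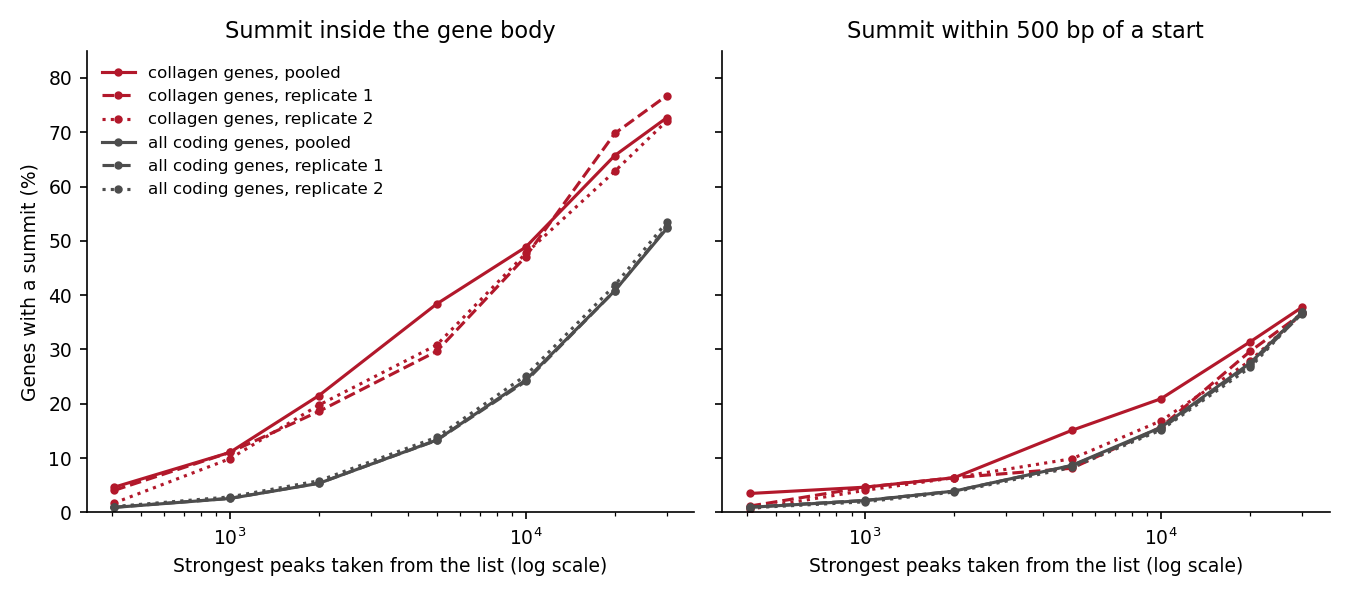
Share of collagen genes (red) and of all protein-coding genes (grey), in percent, that have a summit inside the gene body (left) or within 500 bp of a start (right), against how many of the strongest peaks were taken from each list (log scale); solid lines are the pooled list, dashed lines replicate 1 and dotted lines replicate 2. For the gene body, the red lines lie above the grey ones at each step; for starts, 37.8% of collagen genes and 36.9% of all genes had a summit with the whole pooled list.

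Starts gave another picture. A pooled summit lay within 500 bp of a start in 65 members (37.8%, interval 30.5 to 45.5), beside 36.9% of all genes. Each replicate's list gave 63 members (36.6%), beside 36.6% of all genes in replicate 1 and 36.8% in replicate 2. Over the whole lists, collagen starts thus held summits about as often as starts in general. Both replicates had one in 30 members (17.4%), beside 21.1% of all genes.

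Even the summits counted at starts mostly fell downstream of them. Of the 65, 44 lay downstream of the start and 44 lay inside the gene's own span, whereas all genes were split almost evenly between the sides (50.2% downstream). The median distance was 197 bp downstream over members, beside 3 bp downstream over all genes, with 179 and 217 bp over members in replicates 1 and 2. At least 250 bp downstream of the start lay 47.7% of the members' strongest summits, beside 22.2% over all genes.

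The strongest starts were few. The optimal list had a summit within 500 bp of a start in 6 members (3.49%), beside 0.936% of all genes. They were col-46, col-47, col-85, col-98, col-106 and col-122, with distances between 143 and 487 bp downstream, and col-46 and col-47, on opposite strands, share 1 summit that is downstream of a start of each. An equal number of the strongest peaks of a single replicate reached 2 members in replicate 1 (1.16%, beside 0.986% of all genes) and 1 in replicate 2 (0.581%, beside 0.841%). Among the strongest 5000 pooled peaks, 26 members (15.1%) had a start summit, beside 8.67% of all genes. In replicate 1 that cut gave 14 members (8.14%, beside 8.63% of all genes), and in replicate 2 it gave 17 (9.88%, beside 8.28%). The pooled count was not matched by either replicate alone. In both replicates at once, 10 members (5.81%) passed the cut, beside 3.13% of all genes.

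Those 10 were col-46, col-47, col-85, col-86, col-98, col-106, col-107, col-119, col-122 and sqt-3. Only col-107 among them had its strongest start summit upstream in the pooled list, within the span of C34H4.5. It lay 100 bp upstream there, 85 bp upstream in replicate 1 and 113 bp upstream in replicate 2. The 15 members with the strongest pooled start summits were these 10 with col-19, col-54, col-90, col-139 and col-141. The median signal of the strongest start summit was 45.2 over the 65 members, beside 39.99 over all genes with one.

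Individual members show how closely the replicates placed these summits. In col-98 (chrIII:13019008-13020226) the strongest body summit had signals of 99.8 (pooled), 56.02 (replicate 1) and 41.6 (replicate 2). It stood 487, 487 and 495 bp from the 5′ end of the gene in these lists, so the replicates put it 8 bp apart. In col-108 (chrIV:1768588-1769702) the signals were 98.1, 55.4 and 36.9 in the same order of lists, at 729, 740 and 730 bp. In col-122 (chrIV:9563379-9564441) they were 94.1, 49.4 and 46.1, at 432, 417 and 435 bp. In each of these 3 genes both replicates' summits lay within 30 bp of the pooled one.

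In col-106 (chrIV:1459896-1460786) the ranks were 361 (pooled), 556 (replicate 1) and 686 (replicate 2). In col-34 (chrIV:4243545-4244610) they were 389, 1152 and 523, and in col-183 (chrX:13466643-13467764) they were 450, 1452 and 509. Other members leaned on 1 replicate. The summit of col-143 ranked 319 in replicate 1 and 15577 in replicate 2, and that of col-72, which lies near the tRNA-His gene, ranked 4952 in replicate 1 and 241 in replicate 2. In col-20 the strongest summit ranked 388 in replicate 1 and replicate 2 had none. The adult collagen col-19, much used as a marker of the adult epidermis, ranked 2028 (pooled), 1418 (replicate 1) and 12731 (replicate 2), with the replicates' summits 2 bp apart.

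**Figure D2:**
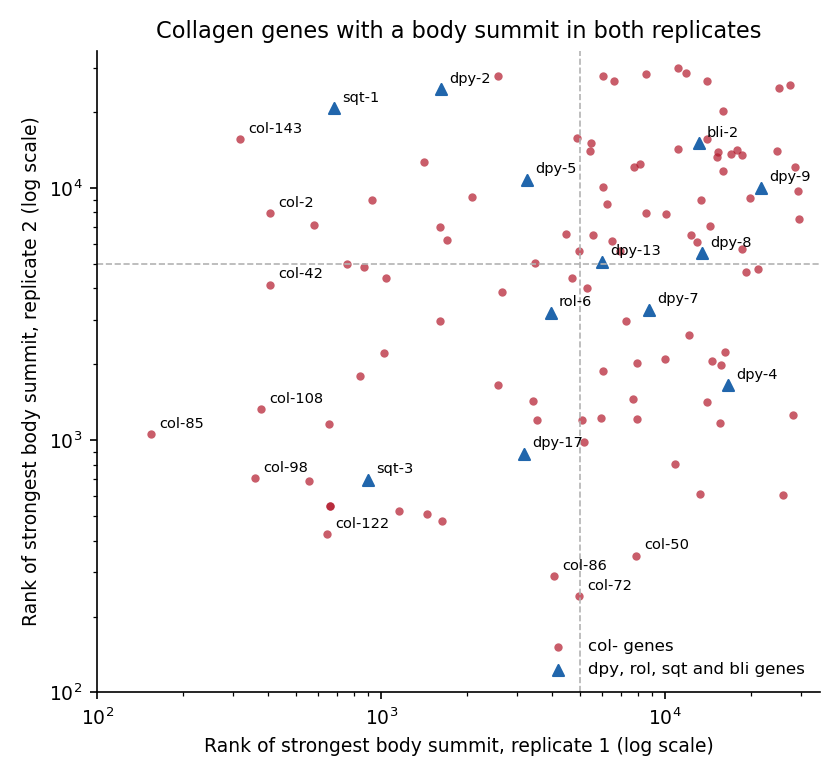
Rank of each collagen gene's strongest body summit in replicate 1 (x axis) against replicate 2 (y axis), both on log scales, for the 111 genes with a body summit in both; circles are col- genes, triangles are dpy, rol, sqt and bli genes, and dashed lines mark rank 5000. The 27 genes in the lower left passed that rank in both replicates, while col-143 and sqt-1 ranked high in replicate 1 alone.

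Over the 111 members with a body summit in both replicates, the log2 signals of the replicates had a Pearson correlation of 0.30 across genes, beside 0.42 over all 7633 such genes. Spearman's rho was 0.31 over members, beside 0.33 over all genes. Genes of 1 list share a library and are not independent replicates, so these values are a description. The order of members within the set was thus only loosely shared. Positions were closer. The strongest body summits of the replicates lay within 200 bp of each other in 64.0% of members, beside 36.4% of all genes. Among genes with a span of 800 to 2000 bp, this held for 67.0% of 91 members and 51.1% of 1684 other genes. For the strongest start summits of the 30 members with one in both replicates, the Pearson correlation was 0.58 and rho 0.59, beside 0.42 and 0.29 over all genes, and the median gap was 57.5 bp, beside 140 bp.

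The collagens with body-shape and blister phenotypes covered the whole range. A pooled body summit was present in 14 of the 16, and 6 of the 16 (37.5%) had one in the strongest 5000, beside 60 of the 156 col- genes (38.5%). These 6 were sqt-3, rol-6, dpy-17, sqt-1, dpy-13 and dpy-5, all outside the furrow and strut groups. SQT-3 and DPY-17 are body-shape collagens that act together, and mutant forms of ROL-6 and SQT-1 twist the cuticle so that worms roll.

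In sqt-3 (chrV:12352745-12354320) the summit had signals of 89.6 (pooled), 46.2 (replicate 1) and 41.7 (replicate 2), and stood 829, 830 and 844 bp from the 5′ end. In rol-6 (chrII:8733050-8734239) the signals were 72.3, 33.1 and 30.9, at 674, 672 and 654 bp. In dpy-17 they were 67.9, 34.8 and 39.96, at 889, 792 and 880 bp. All 3 lists placed these summits in the same part of each gene. In sqt-1 replicate 1 ranked the summit 680 and replicate 2 ranked its own 20722. In dpy-13 the strongest ranked 5985 in replicate 1 and 5111 in replicate 2, and in dpy-5 3266 and 10803. The order was the reverse in dpy-4, with no pooled body summit, rank 16633 in replicate 1 and rank 1652 in replicate 2, while sqt-2 ranked 6234 in replicate 1 and had none in replicate 2.

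Of the 6 annular furrow collagens, dpy-2, dpy-7, dpy-8, dpy-9 and dpy-10 had a pooled body summit, and none ranked in the strongest 5000 of that list. Their pooled ranks were 5710 for dpy-2, 6927 for dpy-7, 14043 for dpy-8, 15191 for dpy-9 and 28929 for dpy-10. Single replicates ranked some of them higher, with 1624 for dpy-2 and 3664 for dpy-10 in replicate 1 and 3292 for dpy-7 in replicate 2, and replicate 2 had no body summit in dpy-10. The sixth, dpy-3, had no body summit in any list. It had a start summit 351 bp upstream, at rank 26802 of the pooled list and 8472 of replicate 1. The strut collagens bli-1 and bli-2, needed to join the layers of the adult cuticle, ranked 13012 and 17312. Furrow genes had a median coding GC content of 51.7% and strut genes 48.6%, and the other 8 body-shape genes 55.4%. The part of base composition in these ranks was not tested.

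**Figure D3:**
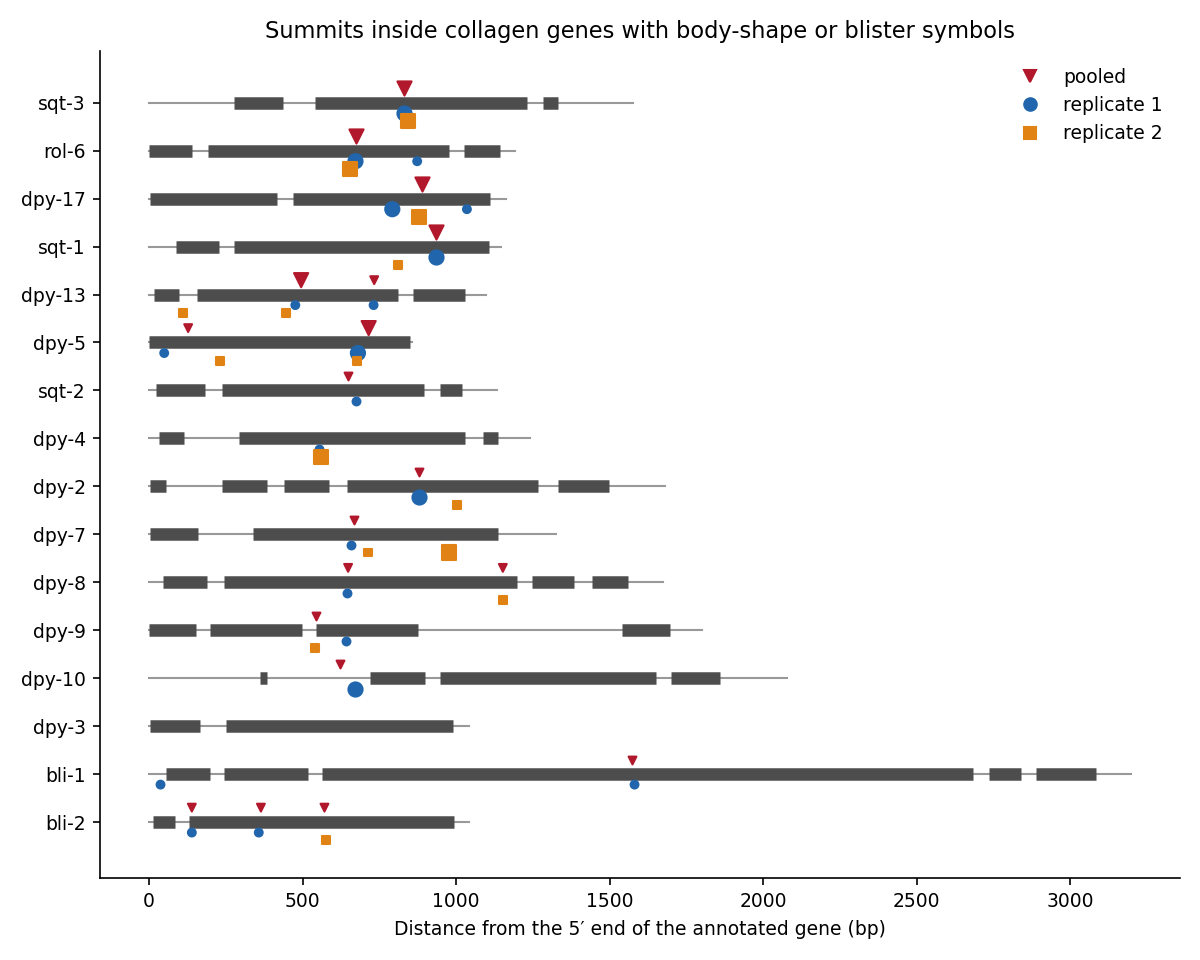
Summits inside the 16 collagen genes with body-shape or blister symbols, by distance in bp from the 5′ end of the annotated gene. Thick bars are coding exons and thin lines the rest of the gene span; red triangles above a gene are pooled summits, blue circles and orange squares below it are summits of replicates 1 and 2, and large symbols rank in the strongest 5000 of their list. In sqt-3, rol-6 and dpy-17 all 3 lists have a large symbol in a coding exon, and dpy-3 has no summit.

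Along the genes, the summits kept to the middle and the 3′ part. The 172 gene bodies held 184 pooled summits, or 182 different peaks, at 0.714 per kb, beside 0.327 per kb over all genes. The replicates gave 0.737 and 0.683 per kb over members, beside 0.324 and 0.328 over all genes. Between 30% and 90% of the way along the gene lay 84.8% of the members' summits, beside 61.1% over all genes, with 83.7% and 77.3% over members in replicates 1 and 2. Of the 184 summits, 136 were more than 500 bp from every start of their gene, in 109 members. Within the strongest 5000 peaks, 47 of 70 summits were that far, in 46 members. Shares at this distance were not taken over all genes, so these counts describe the members alone.

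**Figure D4:**
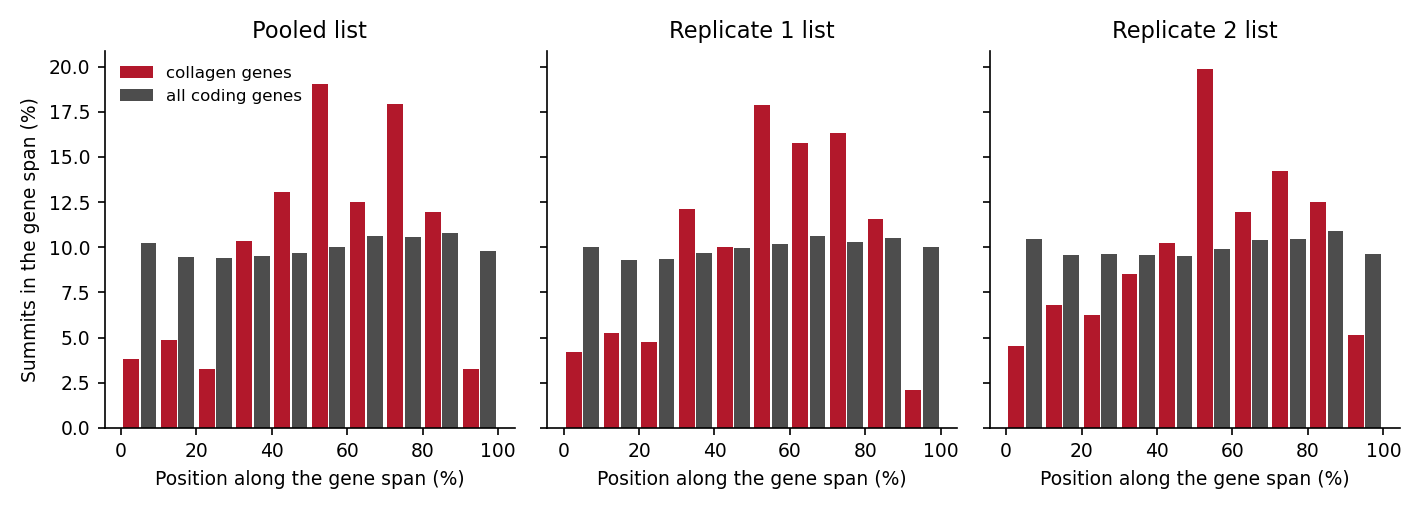
Where summits fell along the gene span, from the 5′ end (0%) to the 3′ end (100%), as the percentage of all summits inside gene spans, for collagen genes (red) and all protein-coding genes (grey) in the pooled list and each replicate's list. In the pooled list 84.8% of the collagen summits lie between 30% and 90% of the span, against 61.1% over all genes, whose bars are nearly level.

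The summits were in coding sequence above all. Of the members' 184 pooled summits, 82.6% were in a coding exon, 12.5% in an intron and 4.89% in a UTR, while coding sequence made up 65.6% of their spans. Over all genes 49.6% of body summits were in a coding exon, and coding sequence made up 38.3% of the spans. The summits' coding share thus exceeded that of the spans over all genes as well, so such an excess is not particular to the members. The coding share was 82.6% and 82.4% over members in replicates 1 and 2.

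Within the coding sequence, the Gly-X-Y repeat held most summits. Stretches of at least 6 Gly-X-Y in a row occurred in 171 of the 172 members and covered 46.7% of the coding sequence of their longest transcripts. They held 114 of the 152 pooled summits in coding exons. In replicate 1 they held 103 of 157 (65.6%) and in replicate 2 they held 101 of 145 (69.7%). The pooled and replicate 1 summits in sqt-3 and col-139 lay in coding exons outside such stretches, while the strongest summit of replicate 2 lay inside one in each gene.

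Codons of the repeat were frequent in the letters at the summits. In windows of 100 bp on either side of a body summit, GGACCA on either strand occurred in 126 of 182 member windows (69.2%), beside 6.85% of 20490 windows over all genes. In the coding sequence of members' longest transcripts, 1785 of 1803 matches on the coding strand (99.0%) were in the reading frame. Within the members' own spans, matches occurred at 14.1 per kb in these windows and 6.11 per kb in the rest, which includes introns and UTRs. The hexamer was chosen after the windows had been seen, so its share is a description of collagen coding sequence at summits.

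The GC box core, the CACC box and the GA repeat were each less frequent in member windows than in other genes' windows of high GC content, though more frequent than over all genes. For the GA repeat in gene bodies the first of these gaps was small. The GC limit was put on the other genes' windows alone, and member windows at starts had a median GC content of 50%, so the shares are not matched. The GC box core GGGCGG, the element that mammalian Sp proteins bind, occurred on either strand in 10 of the 182 body windows (5.49%), beside 4.64% over all genes. In the 64 windows at the strongest start summits it occurred in 6 (9.38%), beside 5.96% of 6847 windows over all genes. Windows of other genes with a GC content of at least 50% held it in 13.0% of cases in gene bodies and 18.2% at starts. The CACC box CACCC was present in 22.0% of body windows, beside 15.8% over all genes, and in 23.4% of start windows, beside 15.8%. The GA repeat GAGAGA was present in 15.4% of body windows, beside 12.8%, and in 17.2% of start windows, beside 15.9%. In windows of other genes with at least 50% GC, CACCC was present in 25.3% of cases in bodies and 28.4% at starts, and GAGAGA in 15.9% and 25.5%.

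AT-rich elements were less frequent in members' gene bodies than over all genes. The GATA core GATAA was present in 16.5% of members' body windows, beside 33.6% over all genes, the TATA box TATAAA in 3.85%, beside 13.7%, and the splice site TTTCAG in 9.34%, beside 31.9%. In body windows of other genes with at least 50% GC these shares were 17.4%, 2.68% and 15.1%. At start windows the TATA box was present in 20.3% of member windows, beside 16.97% over all genes, and GATAA in 31.2%, beside 38.3%. Motifs were read by letters only, on both strands, and each was counted whether or not it overlapped another.

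Base composition moved with where body summits were found. The members' coding sequence had a median GC content of 55.1%, beside 42.5% over all genes, and their median span was 1220 bp, beside 2027 bp. The GC content of the body windows had a median of 56.2% over members, beside 41.3% over all genes. Within the members' spans it was 54.97% in the windows and 45.8% in the rest. In the pooled list as a whole, the median GC content of such windows was 46.3% for the strongest 1000 peaks and 40.8% for all 30000.

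Among genes with a span of 800 to 2000 bp, 102 of 146 collagen genes (69.9%) and 2954 of 7138 other genes (41.4%) had a pooled body summit. The other genes' share climbed from 23.2% where coding GC was under 36% to 83.7% of 43 genes where it was 56 to 60%. At a coding GC of at least 50%, the shares were 69.8% of 129 collagen genes and 71.7% of 551 other genes. Between 50 and 55% they were 73.5% of 49 collagen genes and 70.4% of 470 other genes. At a coding GC of at least 55% they were 67.5% of 80 collagen genes and 79.0% of 81 other genes. At a coding GC under 50% they were 70.6% of 17 collagen genes and 38.8% of 6587 other genes. The 16 members with mostly recurring coding sequence, none with a pooled body summit, all fall in the classes of at least 50%. These shares were not recomputed without such genes on either side. So the members stood above other genes of like length. At high coding GC the collagen share was above that of other genes between 50 and 55% and below it at 55% or more. With members of mostly recurring coding sequence counted in these classes, no direction is drawn from the whole-list shares there.

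The strongest 5000 peaks showed no single direction at high GC. At a coding GC of at least 50%, 37.2% of the 129 collagen genes and 27.6% of the 551 other genes had a body summit among them. Between 50 and 55% the shares were 20.4% of 49 collagen genes and 25.7% of 470 other genes, and at 55% or more they were 47.5% of 80 and 38.3% of 81. In finer classes they were 28.9% of 45 and 26.9% of 245 at 52 to 56%, and 47.1% of 51 and 51.2% of 43 at 56 to 60%. At 60% or more they were 52.9% of 17 and 10% of 10. Members with mostly recurring coding sequence are counted in these shares too.

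Within the set, members with any pooled body summit were not the richer ones in GC, while the share with a strong one was higher in the GC-rich classes. The median coding GC was 54.6% in the 125 members with a pooled body summit and 55.96% in the 47 without, and their median spans were 1269 and 1084 bp. The 47 include the 16 members with mostly recurring coding sequence, and the medians were not recomputed without them. For the 66 with one in the strongest 5000 the median was 56.1%. Among members with a span of 800 to 2000 bp, the share with such a strong summit was 44.4% of 9 at a coding GC of 44 to 48%, which stood outside that order, 21.7% of 23 at 48 to 52%, 28.9% of 45 at 52 to 56%, 47.1% of 51 at 56 to 60% and 52.9% of 17 at 60% or more. The part of base composition in the members' counts was not tested.

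**Figure D5:**
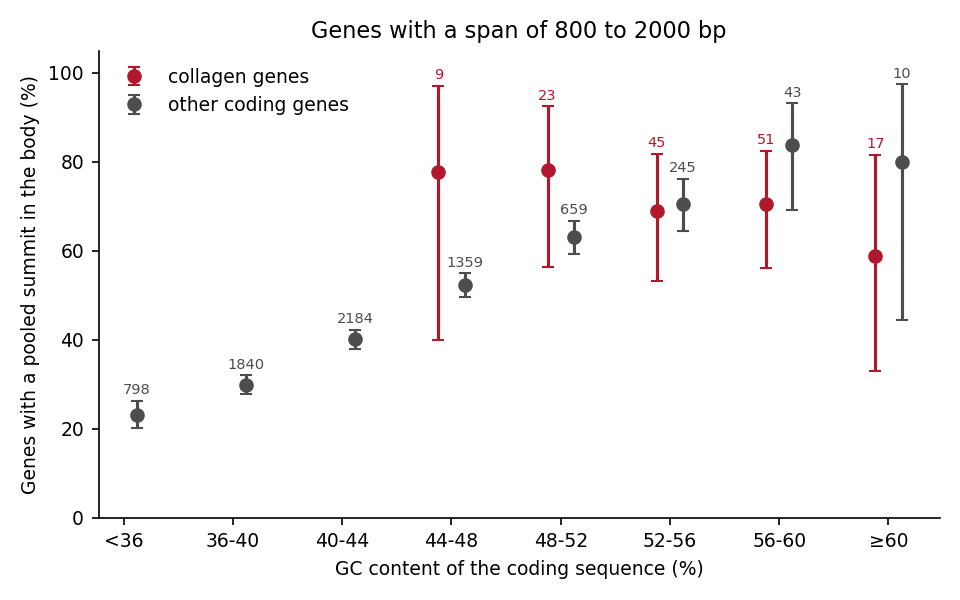
Share of genes with a pooled summit in the gene body, in percent, by the GC content of the coding sequence, for collagen genes (red) and other protein-coding genes (grey) with a span of 800 to 2000 bp. Bars are exact 95% intervals for counting error, small numbers are genes per class, and classes with fewer than 5 genes are not drawn; the grey share climbs with GC content up to the class of 56 to 60% and meets the red one at 52 to 56%, at 70.6% for other genes and 68.9% for collagen genes.

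Members with body summits were spread over all 6 nuclear chromosomes. The share with a pooled body summit ran between 59.4% of 32 members on chromosome V and 80.6% of 31 on chromosome II. On each chromosome it was above the share of all genes there, which ran between 49.1% and 60.3%. Some of these summits also fell in or near other genes. Of the 125 strongest body summits, 24 lay inside the span of another protein-coding gene, such as lron-14 at col-122 and pdzd-8 at col-119, and 5 were within 500 bp of the start of another one. For the named members these were col-46 and col-47 with each other, W09G10.9 at col-72 and W01B6.8 at col-2.

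Near-identical copies were more frequent among the members without a body summit. Stretches of 50 bp counted as recurring in the genome made up at least 50% of the coding sequence in 16 members. None of these 16 had a pooled body summit. Among them were col-117 and col-127, in which all stretches of 50 bp recur, and col-12, col-13 and col-94. This count can be too low, because it was uneven between genes on opposite strands that look like copies. None recurred in col-3, though it shares with col-117 a coding length of 897 bp and a coding GC of 60.2%. The same held for col-126, which has the 882 bp and 53.4% of col-127. The shares that follow use the count as it stands. Of the 47 members without a pooled body summit, 22 had at least 10% of their coding sequence in such stretches (46.8%), beside 6 of the 125 with one (4.80%). Leaving out the 16, 125 of 156 members (80.1%) had a pooled body summit. As none of the 16 had one, this step could only raise the share, and no such share was taken over all genes. A read that lies wholly within a recurring stretch can fit several places, and how such reads were handled is not known. A missing summit is therefore uncertain in such genes, and the part of read placement in the missing summits was not tested. At the summits themselves, recurring stretches were found in 12 of 132 members and made up at least 50% of the window in col-157, col-159 and col-160.

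Shares in other lists of cuticle and matrix genes are to be read beside the 52.3% of all genes with a pooled body summit and the 36.9% with a start summit. Of the 5 collagen genes outside the rule (bli-6, lon-3, rol-1, rol-8 and dpy-14), 4 had a pooled body summit, and lon-3, a collagen that affects body length, ranked 4202. All 3 basement membrane collagens had one, and let-2, a type IV collagen chain with a coding GC of 57.1%, ranked 2305 in the pooled list. Among 15 processing enzymes and proteases, 9 had a body summit (60%). Of these let-268, a lysyl hydroxylase, ranked 1558, and pdi-2, a subunit of prolyl 4-hydroxylase, had a start summit at rank 1009.

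Among 16 cuticlins and moulting proteins, 11 (68.8%) had a body summit, and cut-4, cut-5, fbn-1, lpr-3, mlt-10 and noah-2 ranked in the strongest 5000. Among 14 regulators of the epidermis and moulting, 10 (71.4%) had a body summit and 11 (78.6%) a start summit. The SMAD cofactor sma-9 ranked 263 (pooled), 590 (replicate 1) and 312 (replicate 2) in its body. The others within the strongest 5000 were blmp-1, grh-1 and lin-29 in their bodies and sma-2, sma-9 and grh-1 at a start. The median spans of these lists were 4891 bp for the enzymes, 4147.5 bp for the cuticlins and moulting proteins and 5472 bp for the regulators, beside 2027 bp over all genes, so the counts are not set against those of the collagen genes.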

How the data were processed

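ChIP-seq of SPTF-2-eGFP was analysed from 4 peak lists on assembly ce11, 1 per replicate, 1 pooled and 1 optimal. The authors deposited each peak's signal as a score whose scale the peak caller sets, and its summit as an offset from the peak's start. The sources used here do not name the aligner or caller, no read totals were used, and depth is unknown. The deposited score is on another scale in each list, so lists were compared by rank and count. Per the deposited file descriptions, each list was made against a control alignment. Summits are mostly the middle of peaks of nearly fixed width.

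Chromosome sequences of WBcel235 and starts of protein-coding transcripts from Ensembl release 115 were used. The strongest summit within 500 bp of any start, and all summits inside the gene span, were found per gene with Python 3.11.15, pandas 2.3.3 and Biopython 1.88. The functions were checked on made-up genes with known answers. With 1 group no test was made. Shares have exact (Clopper-Pearson) 95% intervals that cover counting error only. Genes were named by rank in the pooled or both replicate lists, by body-shape or blister symbol, or by membership of a cuticle gene list. The members, lists, and body and GC comparisons were chosen with earlier results of these data known. Alternatives were windows of 250 and 1000 bp, the nearest start alone, stricter ranks, a limit on replicate distance, and each replicate alone.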

Additional observations from a re-analysis of the deposited data

How the results depend on the processing

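With 1000 bp the pooled start count was 129 members, beside 54.5% of all genes, and with 250 bp it was 30 (17.4%, beside 22.5%), against 65 at 500 bp. The count in both replicates was 103 with 1000 bp, 10 with 250 bp and 18 in the strongest 15000 peaks of each, against 30. For that count no share of all genes was taken at these settings. In the strongest 5000 pooled peaks the start count was 61 with 1000 bp (35.5%, beside 14.04% of all genes) and 9 with 250 bp (5.23%, beside 5.03%), against 26, and single replicates gave 14 to 17. The optimal start count was 2 with 250 bp, against 6, and single replicates gave 1 to 2. The median start signal was 52.4 in the strongest 15000 peaks and 49.99 with 1000 bp, against 45.2, and single replicates, whose scores have another scale, gave 22.4 to 25.2. The median distance was 320.5 bp downstream in the strongest 15000 peaks and 497 bp with 1000 bp, against 197 bp. The optimal body count was 8, and single replicates, also added after seeing the data, gave 3 to 7. Other counts inside gene bodies stayed within 1.5 times under the alternatives run. With the whole list or the strongest 15000 peaks they ran between 101 in the strongest 15000 peaks and 132 in replicate 1, against 125. In the strongest 5000 they ran between 51 and 61, against 66, with alternatives chosen after seeing the data (each replicate alone, coding exons alone, and summits in no other gene). Assignment to the nearest start alone moved no count by over 1.5 times. No paired analysis was possible because there is 1 group. Lists that end at 30000 peaks limit what a missing summit shows.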
